A study of Bos taurus with 9 samples.

Results

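The genes described here are 10 listed symbols of actin assembly: the WASH complex genes WASHC1, WASHC2C, WASHC3, WASHC4 and WASHC5, the formin genes FMN2 and FMNL3, the Arp2/3 complex genes ARPC2 and ARPC3, and the actin oxidase gene MICAL1. Of these, 8 were found among the 17852 genes of the table by matching gene IDs to symbols: WASHC1 (gene ID 533602), WASHC3 (613720), WASHC4 (783379), WASHC5 (508040), FMNL3 (540105), ARPC2 (540838), ARPC3 (506596) and MICAL1 (508306). FMN2 and WASHC2C were not analysed here. WASHC2A (513740) is given beside the listed genes as a WASHC2 gene that the list did not hold. The members were chosen by name with their fold changes of microplastics against control, and of taurine with microplastics against microplastics, already in view. Their values in all comparisons are therefore descriptions and carry no test.

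RNA was sequenced from bovine oocytes at metaphase II, the stage at which an egg waits for fertilization. The groups are control oocytes, oocytes given microplastics, and oocytes given microplastics and taurine, an amino sulfonic acid, with 3 libraries each. The sources used here give no dose, exposure time or donor animal, and all 9 libraries carry the same tissue label with no genetic change named. Whether replicates are separate animals or cultures is not in the labels, so a p-value here measures the spread between the samples alone, and that spread may be technical.

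The Arp2/3 complex starts a new actin filament as a branch on the side of an existing filament, and it does so when an activator switches it on. On endosomes that activator is the WASH complex, which helps to sort membrane proteins back to the cell surface or the Golgi with the retromer and retriever coats. Formins instead build unbranched filaments by staying on the growing end. In mammalian oocytes a formin-made cytoplasmic mesh moves the spindle towards the cortex, and Arp2/3-dependent branched actin under the membrane holds it there. MICAL enzymes act in the other direction: they oxidise methionines of actin, which makes filaments fall apart.

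Libraries held 21.17 to 22.74 M estimated reads, and TMM scaling factors were 0.835 to 0.972 (control), 1.214 to 1.253 (microplastics) and 0.841 to 0.958 (taurine). Values compared between groups are TMM-scaled CPM (read counts relative to the scaled library size), and values compared between genes are the authors' deposited TPM, which also correct for transcript length. In a pair of libraries the overall profile went against the label. Control 3 was closer to taurine 1 and 2 (r = 0.976 with each, across genes) than to control 1 (0.962) and control 2 (0.964). Taurine 3 was closer to control 1 (0.969) and control 2 (0.977) than to taurine 1 (0.951) and taurine 2 (0.962). Summed oocyte markers (20 of 20 measured, none at 0) lay between 95200 and 124100 CPM in control libraries, 43000 and 50810 in microplastics libraries, and 87940 and 114800 in taurine libraries. With microplastics 4 of these 20 rose and 7 fell against control by the edgeR test described below, by which 24.3% of all tested genes did so. Summed cumulus and granulosa markers (19 of 20 measured) lay between 514 and 614 CPM, 418 and 519 CPM, and 517 and 574 CPM. Of the 14 tested, 0 rose and 6 fell with microplastics against control. With taurine against microplastics 5 rose and 0 fell, where 14.2% of all tested genes rose or fell. Theca and stroma markers (8 of 10 measured) summed to 11.5 to 22.1, 27.0 to 32.0 and 18.3 to 67.5 CPM in this order of groups. Endothelial markers (5 of 6) summed to 26.9 to 49.0, 35.3 to 54.9 and 28.4 to 45.8 CPM, leukocyte markers (6 of 7) to 6.86 to 9.09, 4.32 to 6.34 and 4.98 to 6.99 CPM, and erythroid markers (4 of 6) to 31.1 to 67.8, 10.7 to 18.0 and 17.6 to 23.9 CPM. The part of these marker levels in the results was not tested. In bulk samples fewer cells of a type and less RNA per cell cannot be told apart.

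In control oocytes the listed genes spanned a wide range of transcript levels. ARPC3, the subunit that links ACTR3 to the rest of the complex, stood highest at 278 ± 35.3 TPM, and ARPC2, which with ARPC4 forms the core of the complex, followed at 209 ± 12.7 TPM (SD, n = 3). WASHC3, a small coiled-coil subunit of the WASH complex, was at 107 ± 15.2 TPM and WASHC2A at 14.1 ± 4.02 TPM. WASHC5, WASHC1, WASHC4, FMNL3 and MICAL1 came last, at 4.23 ± 2.29, 3.53 ± 1.77, 3.40 ± 0.813, 2.15 ± 0.511 and 1.39 ± 0.922 TPM. Each of the 4 highest genes was apart from its neighbours in all control libraries, while each of the 5 lowest overlapped the next in order.

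With microplastics the order changed at both ends. ARPC2 (345 ± 88.9 TPM) stood above ARPC3 (230 ± 26.7 TPM), with 279 TPM in the lowest ARPC2 library and 261 TPM in the highest ARPC3 library. WASHC3 at 43.5 ± 12.2 TPM overlapped WASHC2A at 32.6 ± 6.18 TPM, and WASHC1 came next at 22.7 ± 2.85 TPM, below every WASHC2A library. WASHC5 (10.1 ± 1.87 TPM), FMNL3 (9.44 ± 2.44 TPM) and MICAL1 (9.33 ± 1.50 TPM) overlapped, and WASHC4 was lowest at 4.71 ± 2.34 TPM. With taurine the first 4 genes stood in the control order again: ARPC3 at 293 ± 30.4, ARPC2 at 230 ± 13.3, WASHC3 at 85.6 ± 5.27 and WASHC2A at 17.7 ± 3.71 TPM, each apart from the next. WASHC1, WASHC5, WASHC4 and MICAL1 then overlapped, at 5.16 ± 2.51, 3.68 ± 0.753, 3.52 ± 1.83 and 2.92 ± 0.730 TPM, and FMNL3 was lowest at 1.64 ± 0.193 TPM.

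Within the WASH complex, transcripts of the subunits did not move in one direction. WASHC1 encodes the subunit that carries the Arp2/3-activating tail. It was at 4.14, 5.29 and 8.44 CPM in control 1, 2 and 3, at 29.1, 26.8 and 21.9 CPM in the microplastics libraries, and at 11.4, 9.46 and 4.21 CPM in taurine 1, 2 and 3. Every microplastics library lay above every other library, while control and taurine libraries overlapped. In log2 terms the difference was 2.12 (SE 0.37) for microplastics minus control and -1.63 (SE 0.36) for taurine with microplastics minus microplastics. These differences share the microplastics libraries, here and for every gene below, so opposite signs in them are not independent. Without control 3 and taurine 3 the values were 2.47 and -1.32.

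WASHC3 went the opposite way. Its levels were 77.1, 57.2 and 50.1 CPM in control, 21.2, 13.4 and 13.6 CPM with microplastics, and 41.2, 47.2 and 50.6 CPM with taurine. The microplastics libraries were below all others, and taurine 3 reached just into the control range. Microplastics minus control was -1.94 (SE 0.24) and taurine with microplastics minus microplastics 1.53 (SE 0.23), on the log2 scale. Scaled by library size only, which lets the shift of the whole library into the values, they were -1.44 and 1.09, and without control 3 and taurine 3 they were -2.05 and 1.45.

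WASHC5, or strumpellin, is a large scaffold subunit. It was at 11.2, 14.0 and 24.2 CPM in control, 26.4, 22.8 and 30.6 CPM with microplastics and 15.7, 14.5 and 11.7 CPM with taurine. Control 3 lay inside the microplastics range, and all taurine libraries lay below it. The log2 difference was 0.69 (SE 0.28) for microplastics minus control and -0.93 (SE 0.28) for taurine with microplastics minus microplastics, and the first became 1.09, and was then called, without control 3 alone or without control 3 and taurine 3.

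WASHC4, or SWIP, another large scaffold subunit, had no separation between groups. It was at 27.2, 22.8 and 13.4 CPM in control, 16.6, 28.8 and 10.3 CPM with microplastics and 30.9, 13.0 and 16.1 CPM with taurine. The highest library was 2.03 times the lowest in control, 2.80 times with microplastics and 2.38 times with taurine, so the spread within groups covered any difference between them. The log2 difference was -0.19 (SE 0.41) for microplastics minus control and 0.11 (SE 0.41) for taurine with microplastics minus microplastics, and both changed sign with 1 library left out (-0.64 to 0.12 and -0.35 to 0.56). WASHC4 was the only listed gene found with more than 1 transcript in the table. The shorter transcript had no reads in control 1, control 3 and taurine 2. It made up 15.7% of the gene's TPM in microplastics 2 (89.0 estimated reads), against 1.12% to 7.22% in the other 5 libraries.

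WASHC2A encodes the long-tailed subunit that binds retromer and capping protein. It was at 48.5, 58.2 and 68.0 CPM in control, 89.2, 76.1 and 103 CPM with microplastics, and 80.9, 69.5 and 59.6 CPM with taurine. All microplastics libraries were above all control libraries, but taurine 1 lay above microplastics 2. The log2 difference was 0.62 (SE 0.19) for microplastics minus control and -0.35 (SE 0.19) for taurine with microplastics minus microplastics.

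**Figure D1:**
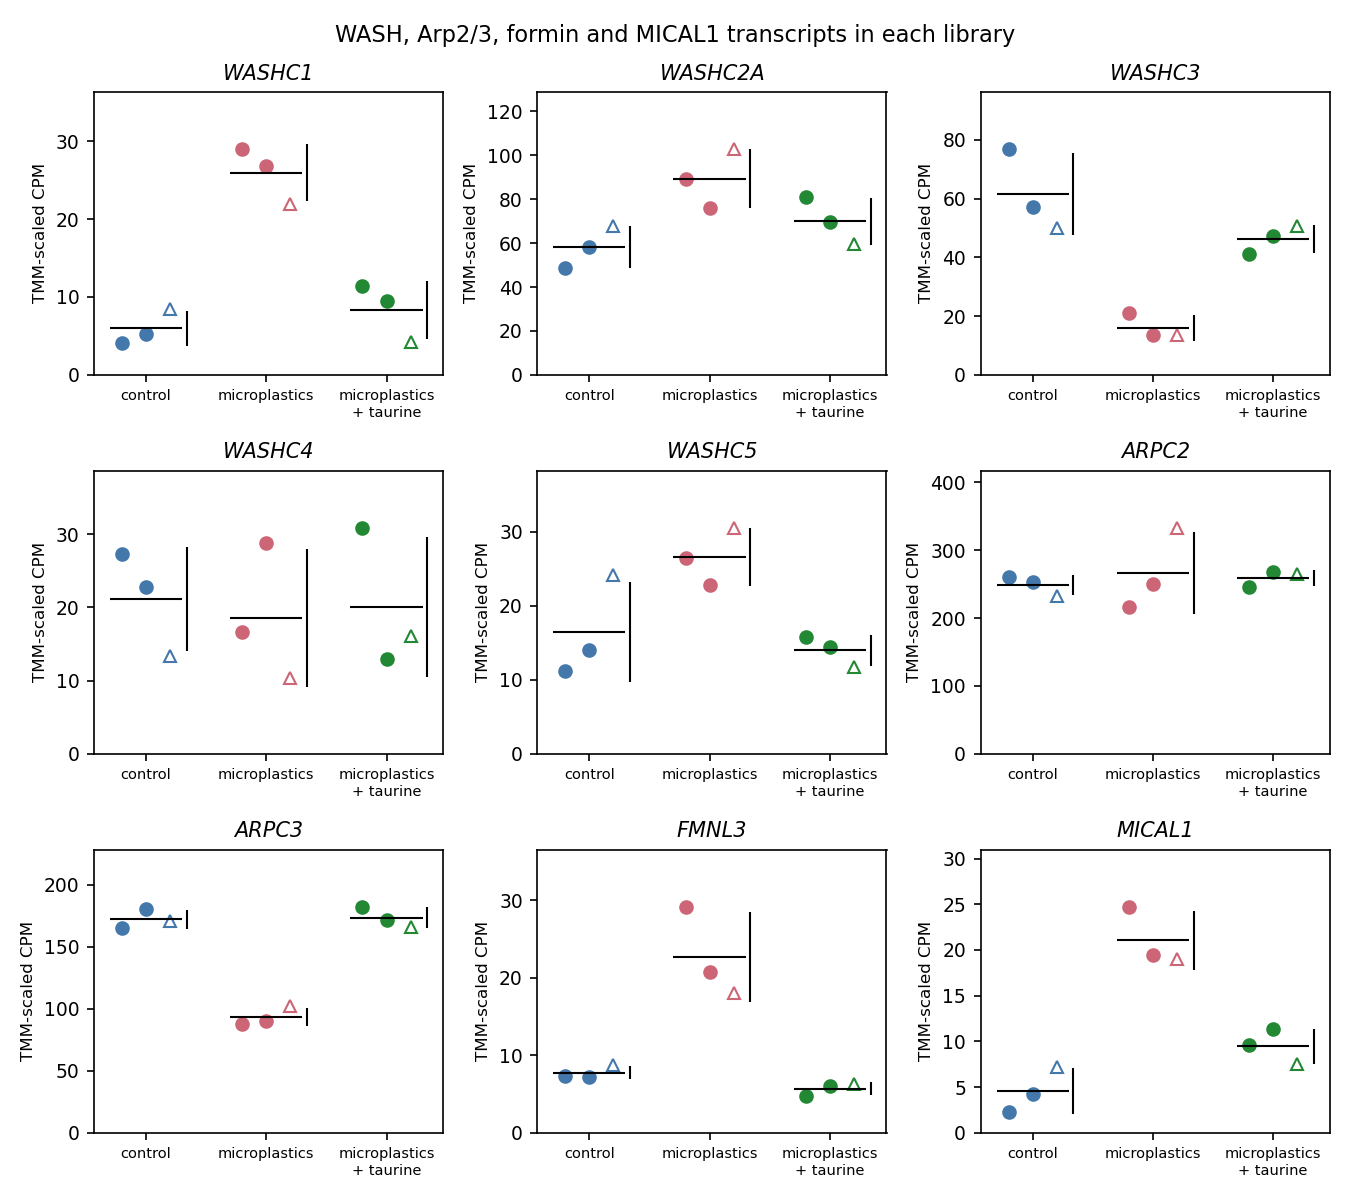
Each panel shows 1 gene with its level in TMM-scaled CPM in the 9 libraries, grouped as control, microplastics, and microplastics with taurine; replicate 3 of each group is the open triangle, the horizontal line is the group mean and the vertical line is 1 SD on either side. WASHC1, FMNL3 and MICAL1 are higher in the 3 microplastics libraries than in any other, WASHC3 and ARPC3 are lower, and WASHC4 and ARPC2 overlap between groups.

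Because the subunits of the WASH complex assemble together, their shares within a library were also computed from TPM, which needs no scaling between libraries. The shares do keep the trend of the differences with transcript length given below, and WASHC3 (551 nt) is the shortest of the 5 genes. WASHC3 made up 80.8% ± 5.66 of the summed TPM of the 5 measured WASH genes in control (SD, n = 3). Its share was 37.8% ± 5.53 with microplastics and 74.2% ± 6.36 with taurine. WASHC1 made up 2.68% ± 1.32, 20.1% ± 2.44 and 4.40% ± 2.02 in the same order, and WASHC2A on average 10.7%, 28.8% and 15.2%. There were 57.2, 33.3 and 18.3 WASHC3 transcripts to 1 of WASHC1 in control 1, 2 and 3, 2.24, 1.55 and 1.92 with microplastics, and 11.0, 15.3 and 36.9 in taurine 1, 2 and 3. The microplastics libraries were apart from the others on this ratio by a wide margin, with control 3 lowest among controls and taurine 3 highest among taurine libraries. WASHC3 and WASHC1 were listed with their opposite differences already in view, so the shares and this ratio are descriptions and no further evidence. The summed TPM of the 5 genes was 133 ± 12.6 in control, 114 ± 15.4 with microplastics and 116 ± 5.70 with taurine. Unlike the shares, these sums depend on the scaling between libraries and are not TMM-scaled. How far the total moved between groups therefore cannot be read from them. The ratio of WASHC2A to WASHC5 averaged 3.62, 3.23 and 4.82.

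**Figure D2:**
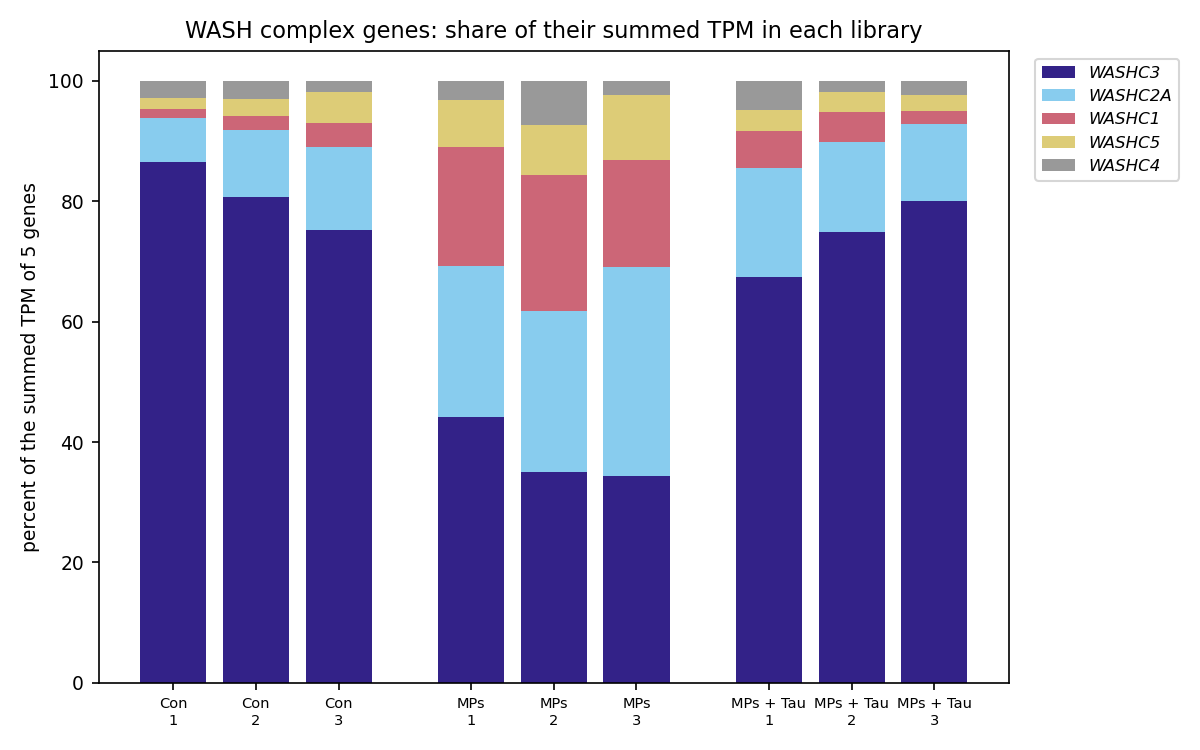
Stacked bars show, for each of the 9 libraries on the x axis (Con, control; MPs, microplastics; MPs + Tau, microplastics with taurine), the percentage of the summed TPM of the 5 measured WASH complex genes that each gene took (y axis). WASHC3 fills most of the bar in control (80.8% on average) and taurine (74.2%) libraries and 37.8% with microplastics, where WASHC1 takes 20.1%.

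Among the formins, FMNL3 belongs to a branch known for bundled filaments at the cell edge and in filopodia. It was at 7.35, 7.19 and 8.77 CPM in control, 29.2, 20.8 and 18 CPM with microplastics and 4.71, 6.03 and 6.35 CPM with taurine. The 3 groups did not overlap: every microplastics library was above every control library, and every taurine library was below every control library. The log2 difference was 1.54 (SE 0.25) for microplastics minus control, -1.99 (SE 0.25) for taurine with microplastics minus microplastics and -0.45 (SE 0.25) for taurine with microplastics minus control. Without control 3 and taurine 3 these were 1.65, -2.09 and -0.43. FMNL3 is a small part of the formin transcripts of these oocytes: of the summed TPM of 13 listed formins that were measured, which include neither FMN2 nor FHDC1, it made up 1.06% ± 0.0956 in control, 3.47% ± 0.762 with microplastics and 0.830% ± 0.178 with taurine. In control FMNL2 (62.7 ± 15.3 TPM), DIAPH2 (60.4 ± 4.12 TPM) and DAAM1 (43.0 ± 6.24 TPM) were the most abundant of these 13 by TPM, followed by DIAPH1 (13.1 ± 1.50 TPM) and FMNL1 (10.9 ± 2.06 TPM). The TPM of DIAPH2, and its part in the sum, rest on an implied length of 1165 nt, the shortest of the tested formins. In CPM, not corrected for length, DIAPH2 was at 72.4 in control, against 332 for FMNL2 and 204 for DAAM1. Whether its transcript in the table is complete was not tested. DIAPH3, FMN1, FHOD3, DAAM2 and FHOD1 were at 4.55, 2.76, 1.42, 0.620 and 0.270 TPM on average, and INF2 and GRID2IP, with at most 7 reads in a library, were not tested.

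The Arp2/3 subunits differed from each other. ARPC3 was at 166, 181 and 171 CPM in control, 87.9, 90.0 and 102 CPM with microplastics, and 182, 172 and 166 CPM with taurine. All microplastics libraries were below all others, and the control and taurine ranges nearly coincided. In TPM, which is not TMM-scaled, microplastics 3 (261 TPM) lay above control 1 (244 TPM). On the log2 scale the difference was -0.89 (SE 0.15) for microplastics minus control, 0.89 (SE 0.15) for taurine with microplastics minus microplastics and 0.01 (SE 0.15) for taurine with microplastics minus control. Scaled by library size only the first 2 were -0.40 and 0.46.

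ARPC2 was at 260.1, 253 and 232 CPM in control, 216, 250 and 333 CPM with microplastics, and 246, 268 and 264 CPM with taurine. The microplastics libraries spanned the whole range of the other groups. The log2 difference was 0.10 (SE 0.17) for microplastics minus control and -0.04 (SE 0.17) for taurine with microplastics minus microplastics, and it was 0.59 and -0.47 when scaled by library size only. The TPM ratio of ARPC2 to ARPC3 was 0.825, 0.735 and 0.713 in control, 1.29, 1.45 and 1.71 with microplastics, and 0.711, 0.822 and 0.836 with taurine, with no overlap of the microplastics libraries with the others. ARPC3 was listed with its difference already in view, so this ratio is a description too.

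In control oocytes ARPC3 made up 42.6% and ARPC2 32.1% of the summed TPM of the 10 measured Arp2/3 genes, against 27.6% and 40.8% with microplastics and 42.4% and 33.4% with taurine. The other subunits were lower in control: ACTR3 at 51.1 ± 1.55, ARPC4 at 29.7 ± 15.8, ARPC1A at 25.3 ± 6.64, ACTR2 at 22.3 ± 2.97, ARPC5L at 16.2 ± 8.57, ARPC1B at 9.39 ± 3.23, ARPC5 at 7.52 ± 1.91 and ACTR3B at 3.53 ± 1.31 TPM. ACTR2 and ACTR3 are the actin-related proteins that seed the branch, and ACTR3B is a second form of ACTR3.

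MICAL1 was the lowest listed gene in control. It was at 2.23, 4.28 and 7.25 CPM in control, 24.8, 19.4 and 19.0 CPM with microplastics and 9.55, 11.3 and 7.50 CPM with taurine. The groups did not overlap, with taurine between the other two, although taurine 3 and control 3 were close. In TPM taurine 3 (2.13) lay below control 3 (2.40). Its log2 difference was 2.19 (SE 0.36) for microplastics minus control, -1.15 (SE 0.35) for taurine with microplastics minus microplastics and 1.04 (SE 0.36) for taurine with microplastics minus control. Without control 3 and taurine 3 these were 2.70, -1.02 and 1.68. MICAL2, a relative known from the nucleus, dominated the family in TPM, so MICAL1 made up on average 2.19% of the summed TPM of MICAL1, MICAL2 and MICAL3 in control, 6.15% with microplastics and 4.42% with taurine.

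Counted by the fit over all genes, which contains the comparisons that chose the list, 3 of the 8 listed genes found were called higher with microplastics than in control (WASHC1, FMNL3 and MICAL1) and 2 lower (WASHC3 and ARPC3), where 24.3% of all tested genes were called, 9.68% higher and 14.7% lower. Called means an adjusted p under 0.05 by edgeR's quasi-likelihood test with Benjamini-Hochberg adjustment over all 13206 tested genes. The same 5 genes had no overlap between the libraries of these groups, as did 44.9% of all genes (22.4% higher, 22.5% lower), and the median log2 difference of the 8 was 0.40 against 0.04 for all genes. With scaling by library size only, which moved the median of all genes to 0.52, WASHC5 and ARPC2 joined the higher genes and ARPC3 was no longer called (5 higher, 1 lower).

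In taurine with microplastics minus microplastics, WASHC3 and ARPC3 were called higher and WASHC1, WASHC5, FMNL3 and MICAL1 lower, where 14.2% of all tested genes were called, 10.1% higher and 4.13% lower. These 6 had no overlap between groups, as did 36% of all genes (18.7% higher, 17.4% lower), and the median of the 8 was -0.48 against -0.02 for all genes. The count was 3 without microplastics 1, where WASHC1 (-1.56), WASHC5 (-0.95) and MICAL1 (-1.04) were no longer called. It was 4 without any 1 of control 2, microplastics 2, microplastics 3 and the taurine libraries, where WASHC5 (-1.04 to -0.81) and MICAL1 (-1.30 to -1.01) were not called.

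In taurine with microplastics minus control, 0 of the 8 were called by edgeR, 1 had an unadjusted p under 0.05, and 0 were called by DESeq2. Over all genes 0.00757% were called, which is 1 gene of 13206, and 753 had an unadjusted p under 0.05. On the CPM scale FMNL3 was lower and MICAL1 higher in every taurine library than in any control library, as were 4.57% and 4.59% of all genes (9.15% in either direction), and the median of the 8 was -0.03 against 0.02 for all genes. Without control 3 and taurine 3, 783 genes were called, among them WASHC1 (1.15) and MICAL1 (1.68), both higher with taurine than in control.

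**Figure D3:**
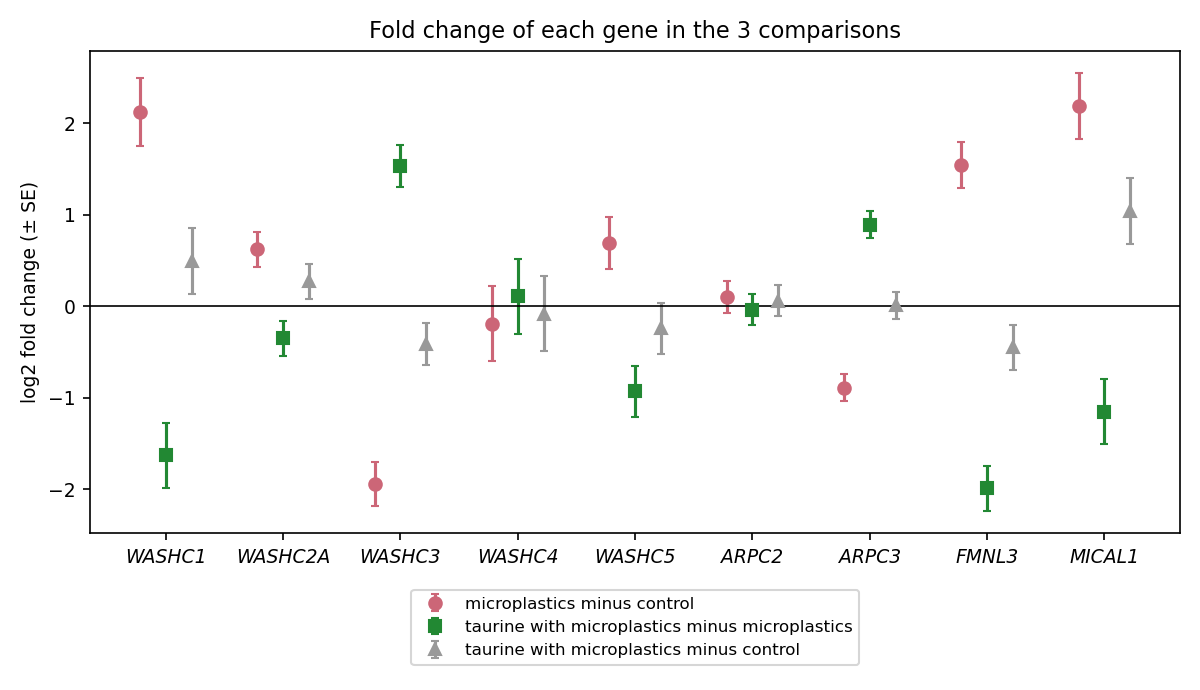
Log2 fold change (y axis) of the 8 listed genes found and WASHC2A in the 3 comparisons, with bars of 1 SE on either side from the fit over all 9 libraries (circles, microplastics minus control; squares, taurine with microplastics minus microplastics; triangles, taurine with microplastics minus control). Circles of MICAL1 (2.19), WASHC1 (2.12) and FMNL3 (1.54) are the highest and that of WASHC3 (-1.94) the lowest; circles and squares share the microplastics libraries.

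Transcript length moved with the difference over all genes. Genes of the shortest of 5 length classes (median 754 nt) had a median log2 difference of -0.35 for microplastics minus control and those of the longest (5079 nt) 0.26. The corresponding values for taurine with microplastics minus microplastics were 0.27 and -0.25. The 2 listed genes called lower with microplastics are the 2 shortest, WASHC3 (551 nt) and ARPC3 (606 nt), in the shortest class, while FMNL3 (3553 nt) and MICAL1 (3348 nt) are in the next to longest. WASHC1 (1694 nt) and ARPC2 (1153 nt) are in the class just above the shortest, and WASHC5 (3927 nt), WASHC2A (4085 nt) and WASHC4 (5845 nt) are in the longest. With a smooth trend on length removed from each library, the differences for microplastics minus control were -1.53 for WASHC3, -0.53 for ARPC3, 2.12 for WASHC1, 1.32 for FMNL3 and 2.01 for MICAL1. For taurine with microplastics minus microplastics they were 1.24, 0.62, -1.69, -1.78 and -0.97, with -0.72 for WASHC5, and MICAL1 and WASHC5 were then not called.

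**Figure D4:**
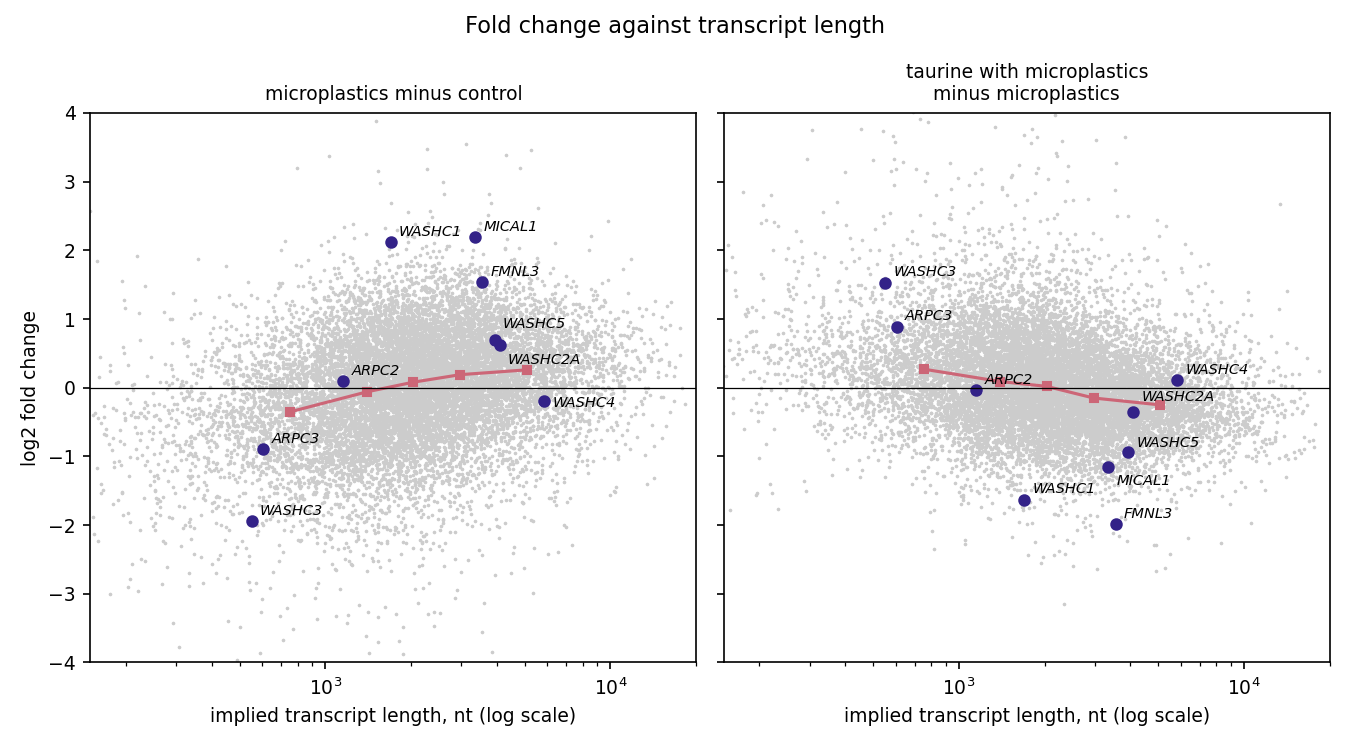
Log2 fold change (y axis; genes beyond its limits are not drawn) against transcript length in nt (x axis, log scale) for microplastics minus control (left) and taurine with microplastics minus microplastics (right); grey points are tested genes, labelled points the listed genes and WASHC2A, and joined squares the medians of 5 length classes. For microplastics minus control the class medians go from -0.35 to 0.26 with length, WASHC3 and ARPC3 lie at the short end below 0, and WASHC1, FMNL3 and MICAL1 lie well above the medians of their classes.

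In the reference annotation WASHC1 overlaps DDX11, a DNA helicase gene, and whether counting used the strand is not given in the sources used here. Reads from the shared stretch therefore cannot be told apart, and DDX11 itself was at 1.28 ± 0.553 CPM in control, 2.18 ± 0.441 with microplastics and 1.48 ± 0.739 with taurine.

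Over the 9 libraries WASHC1 correlated with WASHC3 at -0.92, with MICAL1 at 0.91 and with WASHC5 at 0.86 (Pearson r of log2 CPM), and FMNL3 with ARPC3 at -0.97. These values describe libraries of 3 groups that share their treatment and scaling. The genes most like WASHC1 by the same measure were SAP130 (0.988), NEFH and ISYNA1, those most like WASHC3 were EYA1 (0.992), IMMP1L and RABGGTB, and those most like WASHC5 were MYBBP1A (0.976) and IQGAP3. FMNL3 was most like OSBPL10 (0.979), CRIM1 and PYGO2, MICAL1 most like GEMIN5 (0.988), PTDSS1 and KRI1, and ARPC3 most like SMN2 (0.998), ANKRD49 and DNAJC19. WASHC2A was most like DYNC1LI2 (0.995), TPR and HSPA4. WASHC4 and ARPC2, whose groups overlapped, had weaker nearest genes: CELF2 (0.967), TP53I13 (0.873) and FHDC1 (0.870) for WASHC4, and RIGI (0.941), TOR1AIP1 (0.893) and PTPRD (0.879) for ARPC2.

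Outside the list 134 genes of the wider lists were tested, 97 of them in lists of actin assembly and 37 in lists of endosome sorting and vesicles. Between microplastics and control 23 of them rose, 19 fell and 92 did not pass the test, which is 31.3% called against 24.3% of all genes, with a median log2 difference of 0.21 against 0.04. Of the 97 actin genes alone 16 rose and 9 fell, which at 25.8% is near the share of all genes, and of the 37 endosome and vesicle genes 7 rose and 10 fell (45.9%). With library size as the only scaling, 55 rose and 6 fell. Between taurine with microplastics and microplastics 12 rose and 7 fell, 14.2% against 14.2% of all genes (11.3% of the 97 actin genes and 21.6% of the 37), and 4 rose and 40 fell when scaled by library size only. Between taurine with microplastics and control 0 passed by edgeR and 0 by DESeq2, with 8 at an unadjusted p under 0.05. The wider lists were chosen with earlier results of these data known, so their shares are descriptions and not independent evidence. Genes named from them with an adjusted p were picked for having the smallest in their list.

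Closest to the listed genes are the partners of the complexes. Of 3 tested capping protein genes 1 passed, with microplastics and with taurine (33.3% called, against 24.3% and 14.2% of all genes). It was CAPZA1, a subunit found in the WASH complex and in dynactin, which fell from 1490 ± 119 to 633 ± 40.8 CPM with microplastics (log2 -1.24, edgeR adjusted p = 0.000532) and rose to 1273 CPM with taurine (1.01, adjusted p = 0.00254). Of the 8 Arp2/3 genes outside the list 1 rose with microplastics and 0 fell (12.5% called, under the 24.3% of all genes). It was ACTR3B, from 4.51 ± 1.23 to 9.54 ± 1.29 CPM (1.08, adjusted p = 0.0368). That call was lost without any 1 of control 1, control 2, taurine 2 and the microplastics libraries (0.94 to 1.18). With taurine 0 of the 8 passed by edgeR or DESeq2, and 1 had an unadjusted p under 0.05. Of 18 tested genes for other Arp2/3 activators and their binding partners, 7 rose with microplastics and 0 fell (38.9% called, against 24.3% of all genes). They included WASF3, a WAVE protein, from 10.8 ± 1.72 to 25.3 ± 5.98 CPM (1.22, adjusted p = 0.0045), and WASL, or N-WASP, from 34.6 ± 14.8 to 73.4 ± 9.94 CPM (1.09, adjusted p = 0.0221; 0.84 to 1.13 and not called without control 1, control 2, microplastics 1 or microplastics 3). With taurine 0 of the 18 passed by edgeR, 5 had an unadjusted p under 0.05 and 2 fell by DESeq2. Of 9 inhibitors and debranching factors 1 fell with microplastics (11.1% called, under the 24.3% of all genes). It was GMFB, which takes branches apart (-1.41, adjusted p = 0.00466). With taurine 0 of the 9 passed by edgeR, 2 had an unadjusted p under 0.05 and 1 passed by DESeq2.

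Of the 10 tested formins outside the list 1 rose and 2 fell with microplastics (30% called, against 24.3% of all genes). DIAPH2 fell from 72.4 to 24.4 CPM (-1.57, edgeR adjusted p = 0.000153) and DIAPH3 by 1.11 on the log2 scale (adjusted p = 0.00359), while DIAPH1 rose by 0.63 (adjusted p = 0.0348), which did not pass when any 1 of the control or microplastics libraries was removed (0.54 to 0.71). With taurine DIAPH2 rose to 63.8 CPM (1.39, adjusted p = 0.000483), DIAPH3 rose by 0.84 (adjusted p = 0.0216) and DIAPH1 fell by 0.70 (adjusted p = 0.0335). That is 30% of the 10 called, against 14.2% of all genes. The DIAPH3 call was lost without any 1 microplastics library or taurine 1 (0.69 to 0.92), and the DIAPH1 call without any 1 microplastics library or taurine 2 (-0.78 to -0.53). Scaled by library size only, DIAPH3 passed in neither comparison (-0.63 and 0.42), and DIAPH1 passed in neither with the length trend removed (0.44 and -0.54). SPIRE1, which nucleates actin together with FMN2, was called in the first comparison under each alternative run, rising from 54.5 to 99.7 CPM (0.87, adjusted p = 0.00323). It fell with taurine by 0.62 (adjusted p = 0.027), a call lost without any 1 microplastics library, taurine 2 or taurine 3 (-0.66 to -0.61) and with the length trend removed (-0.43). Of the 6 tested nucleators of this kind 2 rose and 0 fell with microplastics (33.3% called, against 24.3% of all genes). The other was COBL (1.56, adjusted p = 0.0436; 1.21 to 1.63 and not called without control 1, control 2, taurine 2 or any 1 microplastics library, 1.36 and not called with the length trend removed, and not tested under the filter of 5 CPM). With taurine 0 rose and 2 fell (33.3% called, against 14.2% of all genes), SPIRE1 and APC (-1, adjusted p = 0.0226; -0.89 to -0.81 and not called without microplastics 3 or taurine 3, and -0.69 and not called with the length trend removed).

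Of the 6 tested genes for MICAL relatives and for the reductases that reverse actin oxidation, 3 rose with microplastics and 0 fell. That is 50% called, against 24.3% of all genes. The 3 that rose are MICAL relatives, and none of the reductases was called. MICALL1, a MICAL-like protein of recycling endosomes, rose from 5.45 ± 0.552 to 13.6 ± 2.12 CPM (1.31, edgeR adjusted p = 0.00782) and MICAL2 from 355 to 562 CPM (0.67, adjusted p = 0.00939, but 0.42 and not called with the length trend removed). With taurine both fell, MICALL1 by 1.16 (adjusted p = 0.0205) and MICAL2 by 0.64 (adjusted p = 0.0169). That is 33.3% of the 6 called, against 14.2% of all genes. The MICALL1 call was lost without microplastics 1, microplastics 3, taurine 2 or taurine 3 (-1.23 to -0.93), and the MICAL2 call without microplastics 3 or taurine 2 (-0.58 to -0.57) and with the length trend removed (-0.39).

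Of 22 genes for actin monomers, their binding and filament cutting 0 rose and 4 fell with microplastics (18.2% called, under the 24.3% of all genes). SSH1, the phosphatase that activates cofilin, fell by 0.96 (edgeR adjusted p = 0.00518) and TMSB4X, the monomer-holding thymosin, by 0.73 (adjusted p = 0.0107; not called without control 1 or microplastics 3, at -0.63 to -0.61, and at -0.19 with the length trend removed). With taurine 3 rose and 0 fell (13.6% called, near the 14.2% of all genes), among them SSH1 (0.88, adjusted p = 0.012; 0.78 to 0.88 and not called without microplastics 1 or 3) and ACTB, cytoplasmic beta-actin (0.72, adjusted p = 0.024; 0.62 to 0.76 and not called without taurine 1 or any 1 microplastics library). Scaled by library size only, TMSB4X (-0.24) did not pass with microplastics, nor did SSH1 (0.44) and ACTB (0.29) with taurine.

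**Figure D5:**
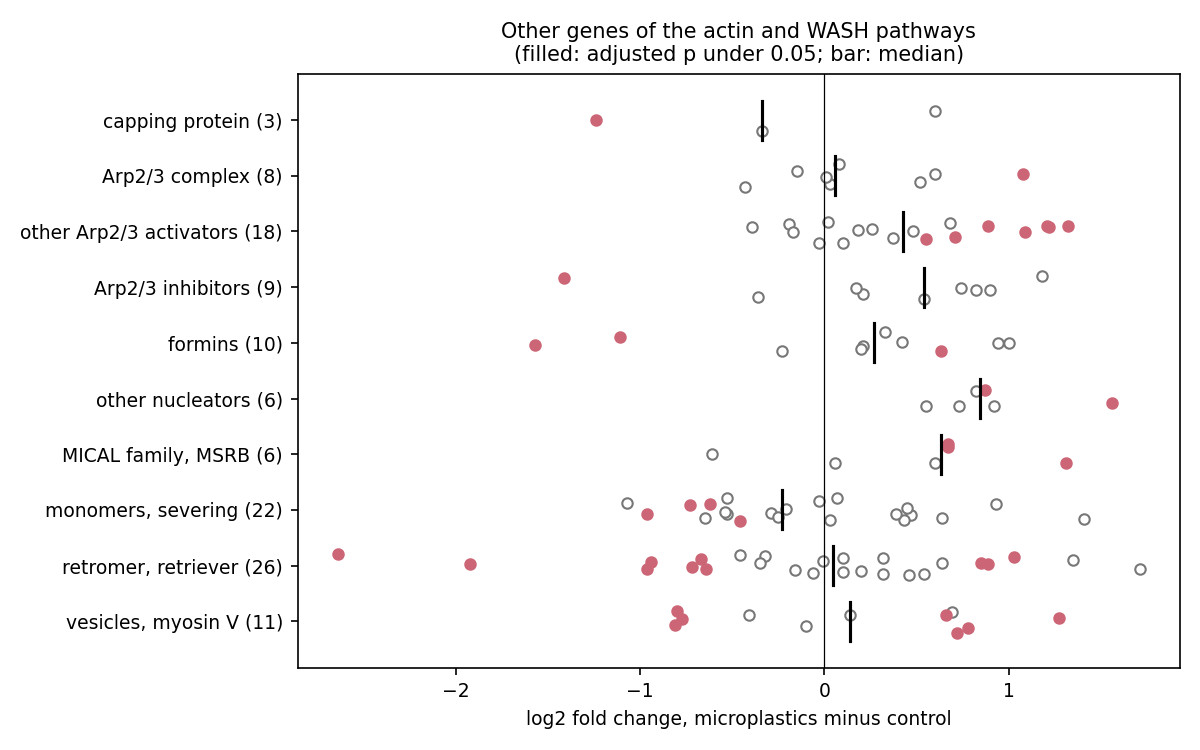
Log2 fold change for microplastics minus control (x axis) of each tested gene in 10 lists of other actin and endosome genes (rows, number tested in brackets); filled points passed edgeR's test, open points did not, and the vertical bar is the list's median. Filled points lie only to the right of 0 among the Arp2/3 activators and their binding partners (7 of 18, or 38.9%, where 9.68% of all tested genes were called higher). They lie only to the left among the monomer and severing genes (4 of 22, or 18.2%, where 14.7% of all tested genes were called lower). The Arp2/3 complex (1 gene), other nucleators (2) and MICAL (3) rows also have them only to the right, and capping protein (1) and Arp2/3 inhibitors (1) only to the left.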

How the data were processed

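RNA of metaphase II oocytes was sequenced in 9 libraries, 3 each of control, microplastics, and microplastics with taurine. No aligner, counting program or genome build is given in the sources used here. Values in the table deposited by the authors are, per the file headers, estimated counts per transcript, not normalized, and the authors' FPKM and TPM. A further set of deposited columns, treated as a signal scaled by the authors, was not used.

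Estimated counts were summed per gene and rounded, and gene IDs were matched to symbols in a RefSeq gene table (16995 of 17852 genes, 95.2%). Differences came from a robust quasi-likelihood fit of all 9 libraries (R 4.3.3, edgeR 4.0.16), with libraries scaled by TMM. Its expression filter needed a count of 10 and a total of 15, and adjustment was by Benjamini-Hochberg over 13206 genes. The filter kept all 8 listed genes found. SE is the absolute log2 difference divided by the square root of the F statistic. Levels and shares between genes used the deposited TPM, and transcript length was taken from the ratio of counts to FPKM. A floor of 3 reads is 0.106 to 0.164 CPM, and covers counting error only.

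Members, gene lists and cell type markers were chosen with earlier results of these data known. Genes named outside the list are, in each wider list, up to 2 called higher and 2 called lower with the smallest adjusted p in each of the first comparisons, every measured gene of the WASH, Arp2/3 and formin lists (the formin list lacks FHDC1), and the 3 genes most like each listed gene; a gene of that kind and 1 wider list are not reported here. The fit was tested on simulated data. Alternatives were DESeq2 1.42.0 and its size factors, library size only, a filter of 5 CPM in 3 libraries, no filter, the replicate number as a block, removal of a length trend, each library left out, control 3 and taurine 3 left out together, and, for listed genes, ratios of mean TPM.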

Additional observations from a re-analysis of the deposited data

How the results depend on the processing

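Of all genes, 3213 were called for microplastics minus control, 1878 for taurine with microplastics minus microplastics and 1 for taurine with microplastics minus control. Of the 134 genes of the wider lists 42, 19 and 0 were called. Scaled by library size only the first counts over all genes were 4880 (82% higher, against 39.8%) and 3089 (19.5% higher, against 71%), and 61 and 44 over the wider-list genes. With 1 library left out the 3 counts over all genes were 1715 to 4151, 888 to 2146 and 0 to 2, and 19 to 53 and 4 to 23 over the wider-list genes in the first comparisons. Counts moved by over 1.5 times without control 1, control 2 or any 1 microplastics library in the first comparison (1715, 1892, 1876, 2059 and 1751). They did so without any 1 microplastics library or taurine 3 in the second (888, 1009, 973 and 1211), and for the wider-list genes also without taurine 2 (12). Without control 3 and taurine 3 the counts were 5110 and 67 in the first comparison and 783 and 12 in the third. In the third comparison DESeq2 called 5 genes and the filter of 5 CPM left 0. The cause of these shifts was not tested.

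Whether same-numbered libraries belong together is not in the labels. Their deviations from their group means correlated at -0.44 to 0.26, which with 3 libraries a group cannot decide it. With the replicate block the counts were 2417, 1293 and 0 over all genes and 30, 12 and 0 over the wider-list genes, and the listed genes called were 5, 4 and 0, with WASHC5 and MICAL1 not called in the second comparison. The block also ended the calls of ACTR3B, COBL, DIAPH1 and RAB11FIP2 in the first comparison and of ACTB, DIAPH1, DIAPH3, RAB11FIP5 and SPIRE1 in the second. No called value of a named gene changed sign under any alternative run. WASHC2A, called higher with microplastics, was not called with the block, with the length trend removed, or without control 1, control 2, microplastics 1, microplastics 3 or taurine 2 (0.40 with the trend removed, 0.50 to 0.76 with 1 library left out, and 1.09 with library size only). The ratio of mean TPM moved 16 of 27 differences of listed genes, WASHC2A included, from the value on the TMM scale. Depth limits the low genes most, with MICAL1 at 2.23 CPM in control 1.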

Other observations

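WASH works on endosomes with the sorting coats retromer and retriever, and the formin mesh of the oocyte is organised around RAB11 vesicles with myosin V. Both of these lists were chosen with earlier results of these data known, so their shares are descriptions. Of 26 tested retromer and retriever genes 3 rose and 7 fell between microplastics and control (38.5% called, against 24.3% of all genes). SNX3, a retromer adaptor, fell from 211 to 33.7 CPM (log2 -2.64, edgeR adjusted p = 2.16e-05) and COMMD6, a retriever partner, from 180.2 to 47.5 CPM (-1.92, adjusted p = 8.99e-05). VPS26C, a retriever subunit, rose (1.03, adjusted p = 0.0054), and so did SNX27, an adaptor that carries cargo to retromer and WASH (0.85, adjusted p = 0.00515). These 4 genes were called under each of the 17 alternatives run. Between taurine with microplastics and microplastics 3 of the 26 rose and 1 fell (15.4% called, near the 14.2% of all genes). SNX3 rose to 196 CPM (2.54, adjusted p = 5.39e-05) and COMMD6 to 156 CPM (1.71, adjusted p = 0.000295). SNX27 fell by 0.71 (adjusted p = 0.019), and did not pass once microplastics 1, microplastics 3 or taurine 3 was removed (-0.75 to -0.61).

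Of 11 tested genes of the RAB11, RAB27 and myosin V system 4 rose and 3 fell between microplastics and control. That is 63.6% called, against 24.3% of all genes. RAB11FIP5 rose by 1.27 on the log2 scale (edgeR adjusted p = 0.00904) and RAB11FIP2 by 0.78 (adjusted p = 0.0325; 0.63 to 0.78 and not called without control 1, control 2, microplastics 1 or microplastics 3, and 0.67 and not called with the length trend removed). RAB11A, the GTPase of recycling vesicles, fell by 0.80 (adjusted p = 0.00205) and RAB27A by 0.77 (adjusted p = 0.00658), but neither was called when scaled by library size only (-0.32 and -0.28). Between taurine with microplastics and microplastics 3 rose and 1 fell (36.4% called, against 14.2% of all genes). Among those that rose were RAB27B (0.87, adjusted p = 0.0112; 0.81 to 0.82 and not called without microplastics 2 or 3) and RAB11A (0.58, adjusted p = 0.0172; 0.53 to 0.54 and not called without microplastics 2, microplastics 3 or taurine 3). Neither was called when scaled by library size only (0.44 and 0.14), nor RAB11A with the length trend removed (0.34). RAB11FIP5 fell by 0.99 (adjusted p = 0.039; -1.08 to -0.81 and not called without taurine 1, taurine 2 or any 1 microplastics library, and -0.77 and not called with the length trend removed).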
